A study of Mus musculus with 3 samples.

Results

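Osteopontin, the secreted protein encoded by Spp1, and 5 genes for the chains of its receptors (Cd44, Itgav, Itgb1, Itgb3 and Itgb5) were followed through single-cell RNA profiles of mouse melanomas. These 6 genes were taken by symbol from the 36530 features of the count tables. They were chosen by their UMI levels over the clusters and tumors, seen beforehand, so the levels are given as a description and carry no test. The profiles came from 3 tumors of 1 genetically engineered model, labelled as of C57BL/6 background and backcrossed into C57BL/6J by the methods of the study: 1 untreated tumor, 1 that had regressed under vemurafenib, an inhibitor of mutant BRAF, and 1 that had progressed on it. The alleles of the mice included Braf LSL.V600E and Tyr.CreER, and some in the study also carried Rosa26 LSL.tdTomato. In this model CreER is driven by the tyrosinase promoter, which is active in melanocytes, and 4-OH tamoxifen on the skin of young adult animals switched the alleles in all 3 groups alike. The duration of treatment and the age at collection were not given in the labels. The cells carry the cluster names that the authors deposited, 25 in all, and a group below is the cells of 1 named cluster in 1 tumor, with 60 such groups of at least 10 cells.

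Osteopontin is a secreted, acidic phosphoprotein of bone matrix that activated macrophages, injured stroma and many tumors also release. Cells bind it through integrins, which are pairs of an alpha and a beta chain, by its arginine-glycine-aspartate (RGD) site, and through CD44, the main receptor for hyaluronan. The alpha v chain (Itgav) pairs with the beta 1, beta 3 or beta 5 chain (Itgb1, Itgb3, Itgb5), whereas Itgb1 also pairs with many other alpha chains.

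Spp1 lies on GRCm38 at chr5:104435111-104441053, Cd44 at chr2:102811141-102901669, Itgav at chr2:83722303-83806917, Itgb1 at chr8:128685654-128733579, Itgb3 at chr11:104608000-104670476 and Itgb5 at chr16:33829665-33949338. The RGD site is the contact that joins the ligand to its integrin receptors, and is shown with 30 bases on either side. It was read from the GENCODE M21 annotation at chr5:104439451-104439519 on the + strand, in exon 7 of the 8 exons of the transcript. The capitals mark codons 145 to 147 of 295, which encode arginine, glycine and aspartate.
Spp1: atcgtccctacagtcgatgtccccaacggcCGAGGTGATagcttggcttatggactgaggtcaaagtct
The motif was searched in frame on the coding strand as CGN, AGA or AGG, then GGN, then GAT or GAC. It was present in the longest coding sequence of 1561 of 21503 protein-coding genes, or 7.26%. It was found in Fn1, Vtn, Thbs1, Fbn1, Mfge8 and Edil3, which encode 6 of the 9 other alpha v ligands listed below, and in all 5 genes of the SIBLING family to which Spp1 belongs. A match is a description of the letters and not of binding.

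The untreated, regressed and progressed tumors gave 4095, 3726 and 4849 cells with a median of 4496, 2658 and 4566 UMIs per cell, and no cell was shared between libraries. A UMI is the molecular tag of 1 captured transcript, and levels are given as CPM, the UMIs of a gene relative to 1000000 UMIs of the group, with exact Poisson 95% intervals that cover counting error only. With 1 tumor per group, no difference between tumors has a replicate check and none was tested. UMIs of marker genes of other cell types were present in most groups, and whether they came from neighbouring cells was not tested. The neutrophil marker list (S100a8, S100a9, Csf3r and Cxcr2) summed to at least 590 CPM in every untreated group, while its median over groups was 452 CPM in the regressed tumor and 6.32 CPM in the progressed tumor. The red blood cell list (Hbb-bs and Hba-a1) summed to at least 1091 CPM in every regressed group.

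The clusters that held most Spp1 transcripts differed between the tumors, as did the clusters present, while Monocytes1 was a large source in both the untreated and the regressed tumor. Over all cells its level was 649 CPM (95% interval 638 to 660) in the untreated tumor, 329 CPM (319 to 339) in the regressed tumor and 86.0 CPM (82.5 to 89.6) in the progressed tumor. The untreated tumor's transcripts came mainly from the Stroma1 cluster and from neutrophils, the regressed tumor's from Stroma10, Tumor2 and Monocytes1, and the progressed tumor's from Stroma7 and Stroma6. Of the 14407 Spp1 UMIs of the untreated tumor, Stroma1 held 45.2% (exact binomial interval 44.4 to 46.0) although it had 472 of the 4095 cells, neutrophils held 31.5% and Monocytes1 held 11.1%. Of the 4079 UMIs of the regressed tumor, Stroma10 held 29.5%, Tumor2 24.1%, Monocytes1 22.0% and Stroma9 9.68%. Of the 2318 UMIs of the progressed tumor, Stroma7 held 43.5%, Stroma6 28.1% and Stroma5 10.6%.

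These shares join the level of a cluster with its size and depth. With every cell thinned to 1000 UMIs, the untreated order turned, with neutrophils at 49.3% and Stroma1 at 26.6%. In the regressed tumor Stroma10 and Tumor2 then lay side by side at 27.9% and 27.5%. With clusters weighted equally, Tumor2 held 35.4% of the regressed tumor's Spp1 and Stroma10 3.98%. Stroma10 had 1537 cells at a level of 248 CPM, and Tumor2 had 349 cells at 2205 CPM. In Tumor2, 22 cells held 83.5% of the Spp1 UMIs.

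**Figure D1:**
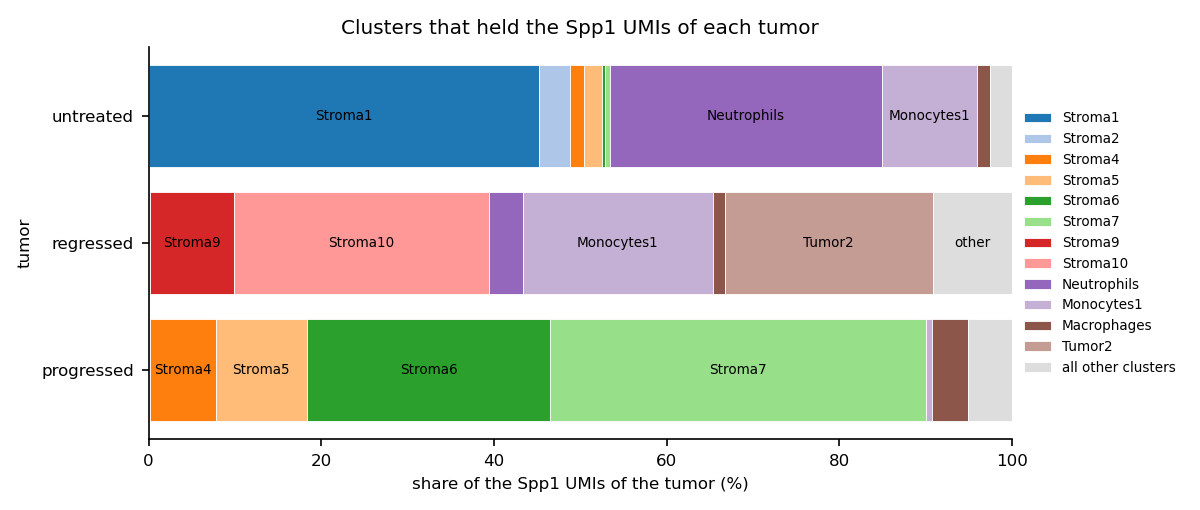
Share of the Spp1 UMIs of each tumor, in percent, held by each deposited cluster. Stroma1 and neutrophils lead in the untreated tumor (45.2% and 31.5%), Stroma10 and Tumor2 in the regressed tumor (29.5% and 24.1%) and Stroma7 in the progressed tumor (43.5%).

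Per cell type, the highest Spp1 levels were in neutrophils, Stroma1, Tumor2 and Monocytes1. Untreated neutrophils held 2984 CPM (2898 to 3072), followed by untreated Stroma1 at 2205 CPM (2152 to 2259) and regressed Tumor2 at 2205 CPM (2069 to 2347), and the intervals of the last pair overlapped. Monocytes1 followed at 1418 CPM (1350 to 1490) in the untreated and 1088 CPM (1018 to 1161) in the regressed tumor, and Stroma7 at 1042 CPM (827 to 1295) in 18 untreated cells. Below these came Stroma7 of the progressed tumor at 554 CPM (520 to 589) and regressed neutrophils at 541 CPM (461 to 631), which overlapped. From there down to the lowest of the 60 groups, each neighbour in the order overlapped the next.

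Most other cell types held little Spp1. Over the groups of 1 tumor, the lowest, median and highest level were 0, 96.3 and 2984 CPM in the untreated, 41.0, 91.0 and 2205 CPM in the regressed, and 0, 24.2 and 554 CPM in the progressed tumor. Mast cells, granulocytes of tissue that served as the type with little Spp1 of its own, held 0, 69.9 (44.3 to 105) and 3.36 CPM in the 3 tumors. The interval of 8 of 20 other groups lay above that of the mast cells in the regressed tumor: Dividing, Macrophages, MitoHigh, Monocytes1, Neutrophils, Stroma9, Stroma10 and Tumor2. The same was so for 11 of 20 groups in the untreated and 8 of 17 in the progressed tumor. The other 12 regressed groups lay between 41.0 and 162 CPM, at the level of the mast cells or within its counting error. These intervals do not allow for UMIs gathered in single cells. In the regressed tumor 1 cell held 23 of the 58 Spp1 UMIs of Macrophages, and 1 held 25 of the 77 of Dividing.

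The share of cells with at least 1 Spp1 UMI did not keep the order of the levels, and no order is read from it. It was 61.2% in untreated Stroma1, and 37.4% once cells were thinned to 1000 UMIs. In untreated neutrophils it was 42.2% (29.8% thinned), and in regressed neutrophils 17.6% (14.8%). In Monocytes1 the share was 43.6%, 35.5% and 7.55% in the untreated, regressed and progressed tumors, or 23.7%, 21.7% and 2.04% when thinned. Stroma7 of the progressed tumor had 50.5% (27.5%), above untreated neutrophils, although its level was lower. Tumor2 had 25.8%, and 26.4% in the 121 of its 349 cells that reached 1000 UMIs, below the 32.0% (14.9% thinned) of Stroma10 before thinning and above it after. The highest unthinned share of the regressed tumor, 49.1%, was in the 57 cells of Monocytes2, which had a median of 7460 UMIs, a level of 103 CPM and 14.3% after thinning. Against these stood the mast cells, with 0%, 19.8% and 1.18% unthinned and 0%, 6.74% and 0% thinned, at medians of 3070.5, 2421.5 and 2984 UMIs per cell.

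**Figure D2:**
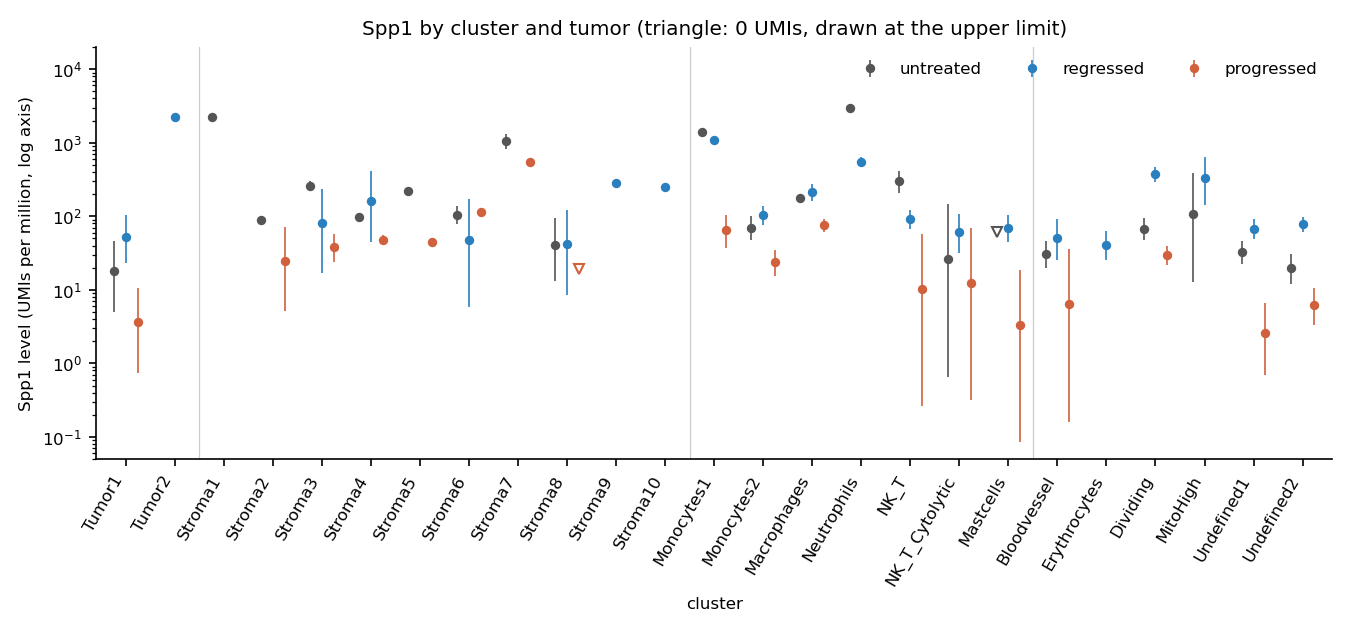
Spp1 level in each cluster and tumor with at least 10 cells, in CPM on a log axis, with exact Poisson 95% intervals; triangles mark groups with 0 UMIs, drawn at their upper limit. Neutrophils (2984) and Stroma1 (2205) of the untreated tumor and Tumor2 (2205) of the regressed tumor lie highest, and the progressed tumor lies lowest in most clusters.

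A small number of cells carried most of the Spp1 transcripts of a cluster. In untreated Stroma1, 93 cells with at least 10 Spp1 UMIs each, a threshold chosen after the values were seen, held 92.2% of the cluster's 6508 UMIs, and the highest cell held 581. In untreated neutrophils 67 such cells held 94.4% of 4539 UMIs, and in untreated Monocytes1 29 cells held 89.6% of 1594. In regressed Tumor2 22 cells, 6.30% of the cluster, held 83.5% of 981 UMIs. The stroma that led in the treated tumors was more even. In regressed Stroma10 cells with at least 10 UMIs held 27.6% of 1205 UMIs, and the highest cell held 30. In progressed Stroma7 28 such cells held 44.9% of 1009 UMIs, and the highest held 47. The untreated tumor had 216 such cells, the regressed tumor 70 and the progressed tumor 50, with medians of 5948, 3703 and 7024 UMIs per cell.

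The Spp1-rich cells kept the markers of their cluster unevenly. In untreated Stroma1 the fibroblast list (Col1a1, Col1a2, Pdgfra, Fap and Dcn) stood at 23941 CPM in the rich cells and 29151 CPM in the others. Rich neutrophils held 177901 CPM of the neutrophil list against 224616 CPM. In untreated Monocytes1 the monocyte genes Ly6c2 and Ccr2 summed to 277 CPM in the rich cells and 1910 CPM in the others, the macrophage list to 609 and 1257 CPM, and the neutrophil list to 6263 and 2758 CPM. In regressed Monocytes1 the monocyte genes summed to 470 CPM in the 15 rich cells and 1972 CPM in the others, and the macrophage list to 1262 and 2173 CPM, while the neutrophil list was at 841 and 901 CPM. The part of doublets in these values was not tested.

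Tumor2, whose Spp1 stood out in the regressed tumor, was a shallow cluster of 349 cells with a median of 768 UMIs, and each other tumor had 4 of its cells, with no Spp1 UMI. In its 22 Spp1-rich cells Spp1 stood at 20338 CPM, against 400 CPM in the other 327. Sox10, a transcription factor of the melanocyte lineage, held 323 CPM in the rich cells (8 of 22 cells) and 450 CPM in the others (123 of 327 cells), while the groups outside the tumor clusters reached at most 112 CPM in that tumor. The tWPRE row, a sequence that the sources used here do not describe, held 323 CPM (172 to 552) in the rich cells and 1386 CPM in the others, and up to 530 CPM in the outside groups. The pigment genes Dct, Pmel, Tyrp1 and Mlana had no UMI in the rich cells, which leaves an upper limit of 91.6 CPM for each. The other 327 cells held 1643, 492, 180 and 91.4 CPM of them, so nothing is read from the 0 of Mlana. Dct had UMIs in only 9 of these 327 cells. The tumor marker tdTomato also had 0 UMIs in the rich cells, and 8 in the others. The fibroblast list was at 3228 CPM in the rich and 2577 CPM in the other cells, and the macrophage list at 74.5 and 126 CPM.

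Cd44, the hyaluronan receptor that also binds osteopontin, was highest in white blood cells. Untreated Monocytes1 held 816 CPM (764 to 871), and the cluster held 498 and 462 CPM in the regressed and progressed tumors. Neutrophils held 525 CPM untreated and 743 CPM (648 to 847) regressed, and NK_T cells 455, 251 and 329 CPM. Tumor cells also carried Cd44, with 354, 146 and 283 CPM in Tumor1 and 310 CPM in regressed Tumor2. Macrophages were lower at 152, 89.1 and 151 CPM, near the median over all 60 groups of 156 CPM.

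The stroma divided by Cd44. Stroma3 held 161, 189 and 181 CPM and Stroma6 148, 145 and 154 CPM (untreated, regressed and progressed), and untreated Stroma1 and Stroma2 114 and 105 CPM. The regressed values came from 7 UMIs in 12 Stroma3 cells (76.2 to 390) and 6 UMIs in 13 Stroma6 cells (53.1 to 315). Stroma7, the main Spp1 source of the progressed tumor, held 12.9 CPM untreated and 20.9 CPM progressed, and Stroma10, the largest source of the regressed tumor, 40.6 CPM. Blood vessel cells held 10.3, 42.0 and 12.7 CPM. Of the clusters that led in Spp1, neutrophils, Monocytes1 and Tumor2 thus had Cd44 above the median over groups, and Stroma1, Stroma7 and Stroma10 below it. Over the 21 stroma groups log2 levels of Spp1 and Cd44 had a Pearson correlation of -0.47, and over all 60 groups of 0.00056. Groups of 1 tumor share a library, so these are descriptions.

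Itgb1, the most widely used beta chain, was detected in tumor cells, stroma and immune cells alike and was low in neutrophils. Regressed Tumor2 held 892 CPM (807 to 984), regressed Stroma3 866 CPM (592 to 1222) in 12 cells and regressed Stroma6 795 CPM (548 to 1117) in 13 cells. Tumor1 held 548, 728 and 625 CPM, in the same order of tumors. Neutrophils held 48.7 CPM untreated and 171 CPM regressed. Itgav, an alpha chain that pairs with Itgb1, Itgb3 and Itgb5, was highest in progressed Stroma3 at 190 CPM (156 to 230) and in Tumor1 at 181, 159 and 146 CPM. Stroma6 held 92.8, 72.3 and 91.4 CPM, macrophages 51.2, 44.5 and 76.7 CPM, and neutrophils 19.1 CPM untreated and 23.5 CPM regressed. The regressed Stroma6 value came from 3 UMIs in 13 cells (14.9 to 211). Itgav and Itgb1 levels had a Pearson correlation of 0.73 and a Spearman correlation of 0.51 over the 60 groups, which include untreated MitoHigh with 0 UMIs of both, and a Pearson correlation of -0.15 over the 21 stroma groups.

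Itgb3 and Itgb5 marked different stroma. Itgb3, the beta chain known from platelets and osteoclasts, was highest in progressed Stroma8 at 116 CPM and Stroma5 at 107 CPM (98.9 to 116), with 78.9 CPM in untreated Stroma5, 54.1 CPM in regressed Stroma10 and 56.6 CPM in progressed Stroma7. Itgb5, which serves in the binding of vitronectin, was highest in untreated Stroma8 at 164 CPM (126 CPM regressed and 63.1 CPM progressed), in Stroma3 at 154, 162 and 131 CPM and in macrophages at 144, 160 and 105 CPM. The regressed Stroma3 value came from 6 UMIs in 12 cells (59.6 to 353), and the untreated Stroma8 value from 20 UMIs in 23 cells (100 to 254). Where Itgb3 was high in Stroma5 and Stroma7, Itgb5 was near 0, at 5.31 and 3.61 CPM in Stroma5 and 0 and 3.30 CPM in Stroma7. Macrophages were the reverse, with 4.13, 7.42 and 4.74 CPM of Itgb3. Progressed Stroma8 carried both, with 63.1 CPM (32.6 to 110) of Itgb5 in 12 UMIs. Over the 21 stroma groups the Pearson correlation of Itgb3 with Itgb5 was -0.33 and Spearman's rho -0.44, a description over groups that share 3 libraries.

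**Figure D3:**
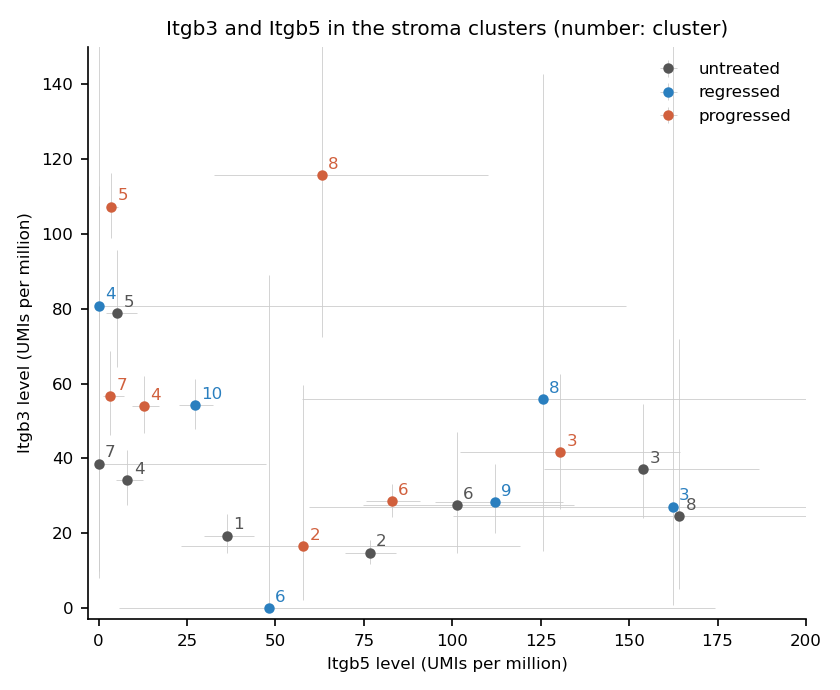
Level of Itgb3 (vertical axis) against Itgb5 (horizontal axis) in each stroma cluster and tumor with at least 10 cells, in CPM, each point numbered by its cluster and colored by tumor, with exact Poisson 95% intervals that are cut at the frame where longer. Stroma5 (107 progressed) and Stroma7 lie at high Itgb3 and low Itgb5, Stroma3 lies at high Itgb5 (131 to 162), and progressed Stroma8 has the highest Itgb3 (116) with 63.1 of Itgb5. The Stroma3 value of 162, of the regressed tumor, comes from 6 UMIs in 12 cells.

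**Figure D4:**
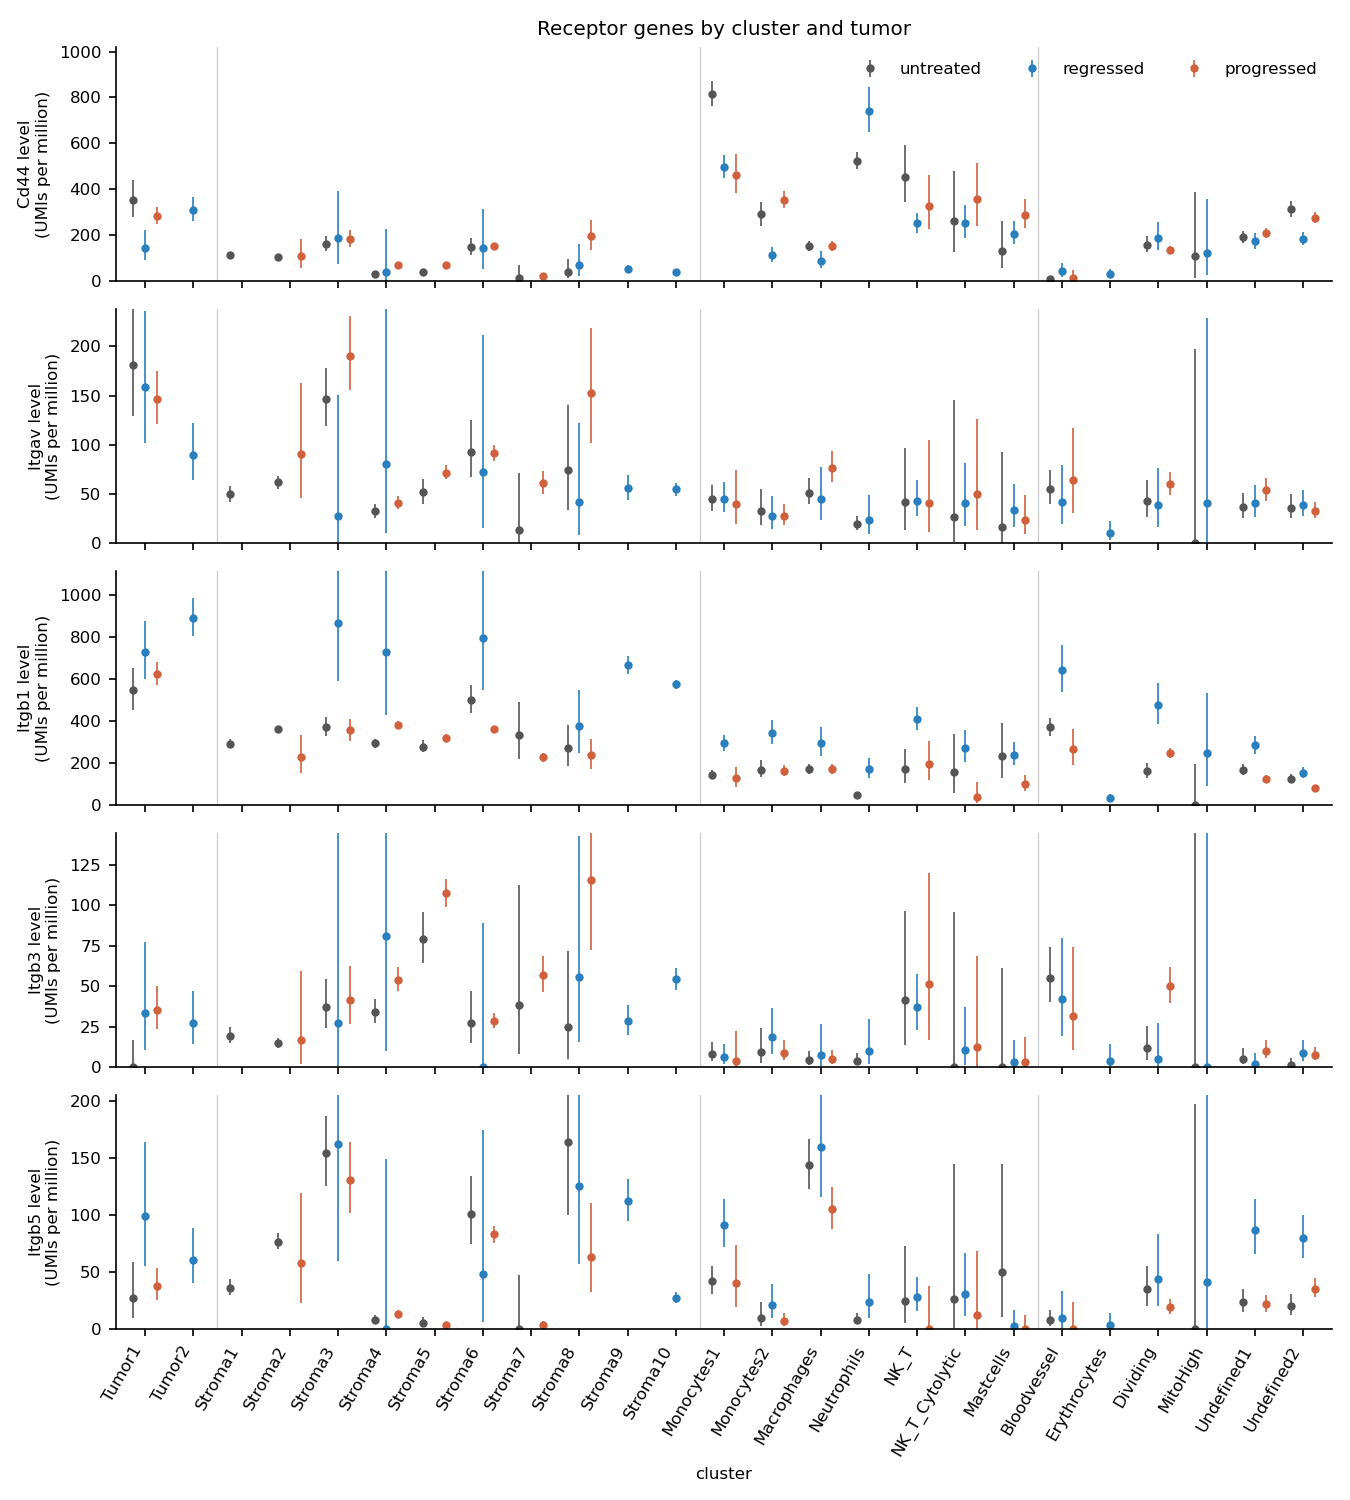
Levels of the 5 receptor genes in each cluster and tumor with at least 10 cells, in CPM, with exact Poisson 95% intervals cut at the frame where longer. Cd44 is highest in Monocytes1 (816 untreated) and Itgb1 in Tumor2 (892 regressed), while Itgb3 is near 0 in macrophages.

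UMIs of the alpha v chain and a beta chain were found in the same cell most often for Itgb1, which was also found most often on its own. In untreated stroma Itgb1 UMIs were found in 72.6% of cells, Itgb5 in 20.6% and Itgb3 in 11.9%. No preferred pairing is read from the order of the pairs. UMIs of both Itgav and Itgb1 were found in 37.5% of the 48 untreated tumor cells, 9.02% of 410 regressed and 40.0% of 160 progressed tumor cells, but in 4.44%, 6.63% and 3.87% once cells were thinned to 1000 UMIs, so the shares follow depth. In the stroma Itgav and Itgb3 were found together in 3.16%, 3.49% and 8.91% of cells, and Itgav and Itgb5 in 6.93%, 2.87% and 6.05%. After thinning, the pair of Itgav and Itgb3 was found in 0.0770% (0.00932 to 0.278) of untreated, 0.404% (0.163 to 0.830) of regressed and 0.50% (0.292 to 0.799) of progressed stroma cells. These were 2, 7 and 17 cells. The intervals take cells as independent, and with 1 tumor per group no difference between tumors is read from them. Spp1 and Cd44 were found together in 26.5%, 13.9% and 4.98% of immune cells, and in 9.16%, 4.70% and 0.301% after thinning.

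Monocytes1 cells with Spp1 held more Cd44 than those without. In the untreated tumor the 98 cells with a Spp1 UMI held 1050 CPM of Cd44 and the 127 without 613 CPM, at medians of 4912 and 4873 UMIs per cell. In the regressed tumor the values were 744 and 344 CPM in 70 and 127 cells, at unequal medians of 4505.5 and 3975 UMIs. After thinning, 61.5% of 96 against 43.1% of 123 cells had a Cd44 UMI in the untreated tumor, and 38.2% of 68 against 30.2% of 116 in the regressed tumor. No interval is given for these shares. The Spp1-rich cells among those with Spp1 also held less of the monocyte genes, as given above. Untreated Stroma1 held 128 CPM of Cd44 in cells with Spp1 and 81.7 CPM in cells without, or 11.2% against 7.69% of cells after thinning, at medians of 6675 and 4243 UMIs. In untreated neutrophils the values lay closer, with 552 CPM in cells with Spp1 and 502 CPM in cells without. In regressed Tumor2 Cd44 was 334 and 299 CPM, while Itgav was 156 CPM in cells with Spp1 and 59.2 CPM in cells without. Among the Spp1-rich cells Cd44 UMIs were found in 29 of 29 Monocytes1 cells and 56 of 67 neutrophils of the untreated tumor, but in 3 of 28 Stroma7 cells of the progressed tumor, of which 13 had Itgav, 19 Itgb1, 8 Itgb3 and 0 Itgb5.

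Between the untreated and the regressed tumor, Spp1 was higher in the tumor cells and lower in the stroma and immune cells, each taken as a whole. Counts below are of genes past 2-fold with at least 20 UMIs over both tumors, the compartments are tumor cells (Tumor1 and Tumor2), stroma (Stroma1 to Stroma10) and immune cells, and log2 ratios have exact conditional binomial 95% intervals. Spp1 in tumor cells was at 15.2 CPM untreated, 1659 CPM regressed and 3.57 CPM progressed, a log2 ratio of 6.77 (5.41 to 8.65) for regressed against untreated. It was 5.29 and 3.81 with cells thinned to 1000 and 500 UMIs, and 819 of the regressed UMIs lay in the 22 Spp1-rich cells of Tumor2. The untreated tumor cells held 4 Spp1 UMIs in 48 cells. Of the 410 regressed tumor cells 349 were Tumor2, whereas Tumor1 alone held 18.1, 53.0 and 3.62 CPM. These Tumor1 levels came from 4, 8 and 3 UMIs, with intervals of 4.94 to 46.4, 22.9 to 104 and 0.747 to 10.6 CPM. The Tumor1 interval lay above that of the mast cells in no tumor. Spp1 in stroma was at 559, 251 and 120 CPM, with log2 ratios of -1.15 for regressed against untreated and -1.07 for progressed against regressed. Spp1 in immune cells was at 1425, 431 and 45.9 CPM, with log2 ratios of -1.73 and -3.23. Untreated and regressed stroma came from different clusters, since Stroma1 had only 1 regressed cell, and neutrophils had only 4 progressed cells.

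Within single clusters present in both tumors, the progressed tumor was low in Spp1. The progressed level lay below the untreated level with an interval that left out 0 in 13 of 18 clusters and above it in 0. Against the regressed tumor it lay below in 11 of 15 clusters and above in 0. These counts include clusters at the level of the mast cells, which 9 of 20 untreated, 12 of 20 regressed and 9 of 17 progressed groups did not clear. Among them were Undefined1, with 32.8 CPM untreated and 2.55 CPM progressed, and Undefined2, with 19.9 and 6.22 CPM. The part of RNA from neighbouring cells in such clusters was not tested. Monocytes1 held 64.3 CPM in the progressed tumor against 1418 CPM untreated, and macrophages held 75.1 CPM against 177 and 215 CPM. Regressed against untreated gave no common direction, with 4 clusters above, 4 below and 9 whose interval held 0.

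In most comparisons of compartments the receptor genes differed less than their ligand. In the regressed tumor Itgb1 was above its untreated level in 12 of 17 clusters and below it in 0, and in the progressed tumor it was below the regressed level in 13 of 15. Its log2 ratio for regressed against untreated was 0.64 (tumor cells), 0.85 (stroma) and 1.30 (immune cells), beside medians over all genes of 0.11, 0.14 and 0.51. With TMM scaling, which takes out such a common shift, the stroma and immune values were 0.61 and 0.71. Cd44 in stroma had a log2 ratio of -0.99 for regressed against untreated and 1.09 for progressed against regressed. Itgav had an interval that held 0 in 17 of 17 clusters between regressed and untreated. It had 3621 UMIs in all, against 19558 of Itgb1. Fewer UMIs give wider intervals, and no lack of difference is read from this count. Itgb3 in stroma had a log2 ratio of 1.22 for progressed against untreated, and Itgb5 of -0.57. In tumor cells Itgb3 had no untreated UMI, so the log2 ratio was at least 1.33 for regressed and at least 1.60 for progressed, against a floor of 3 UMIs over the group and with no allowance for the counting error of the 17 and 29 UMIs above it.

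Counts of members past 2-fold stood beside those of all genes, and since the members were chosen with these values known nothing is read from them. For regressed against untreated, 2 of 5 measured members were past 2-fold higher in tumor cells (16% of all genes) and 0 lower (6.7%), 1 of 6 was lower in stroma (7.09%) and 0 higher (13.7%), and 2 of 6 were higher (25.6%) and 1 lower (3.81%) in immune cells. For progressed against regressed, 1 of 6 was lower in tumor cells (11.6%, with 5.54% higher), 1 higher (4.99%) and 1 lower (15.9%) in stroma, and 1 lower (16.4%, with 3.91% higher) in immune cells. For progressed against untreated, 1 of 5 was higher in tumor cells (9.7%, with 5.6% lower), 1 higher (3.57%) and 1 lower (5.7%) in stroma, and 1 lower (5.73%, with 9.49% higher) in immune cells. The medians of all genes for progressed against regressed were -0.08, -0.20 and -0.28 in the tumor cells, stroma and immune cells, and for progressed against untreated 0.03, -0.06 and 0.24.

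**Figure D5:**
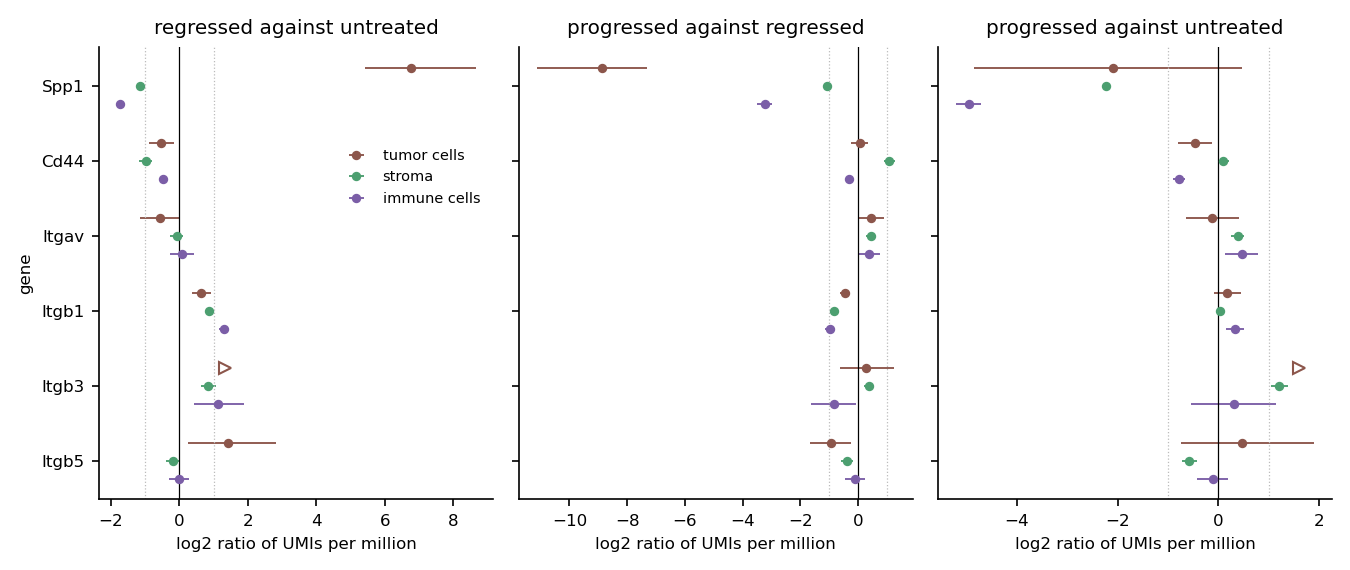
Log2 ratios of the 6 genes between tumors in tumor cells, stroma and immune cells, with exact 95% intervals; open arrowheads are bounds where 1 tumor had 0 UMIs, and dotted lines mark 2-fold. Spp1 has the longest reach, from 6.77 in regressed against untreated tumor cells to -8.86 in progressed against regressed tumor cells, which held 3 UMIs, while the receptor genes lie mostly within 2-fold.

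The other genes of the system were grouped in 7 lists of 65 genes. For regressed against untreated in tumor cells, 6 of 33 measured genes were past 2-fold higher, beside 16% of all genes, and 8 lower, beside 6.7%. The stroma had 10 higher (13.7%) and 8 lower (7.09%) of 52, and the immune cells 10 higher (25.6%) and 7 lower (3.81%) of 48. For progressed against regressed, tumor cells had 6 higher (5.54%) and 6 lower (11.6%) of 33, stroma 11 higher (4.99%) and 12 lower (15.9%) of 50, and immune cells 5 higher (3.91%) and 9 lower (16.4%) of 48. For progressed against untreated, tumor cells had 5 higher (9.7%) and 4 lower (5.6%) of 32, stroma 4 higher (3.57%) and 4 lower (5.7%) of 52, and immune cells 6 higher (9.49%) and 6 lower (5.73%) of 47. The same shares of all genes stand beside the counts of single lists below, and nothing particular to the lists is read from any of these counts.

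Of the other ligands of alpha v integrins, proteins of matrix and clots, 8 were measured in stroma. For regressed against untreated 4 were past 2-fold lower (7.09% of all genes) and 0 higher (13.7%). Their median log2 ratio was -0.95, beside 0.14 over all genes. Tenascin C (Tnc) held 99.6, 7.32 and 39.7 CPM in the stroma of the untreated, regressed and progressed tumors, Cyr61, a matrix-bound growth regulator, 359, 54.6 and 212 CPM, and fibronectin (Fn1) 863, 353 and 803 CPM. For progressed against regressed 4 of 8 were higher (4.99%) and 1 lower (15.9%), with thrombospondin 1 (Thbs1) at 125 and 543 CPM. Vitronectin (Vtn) held 127, 71.1 and 27.3 CPM. For progressed against untreated 1 was higher (3.57%) and 2 lower (5.7%). In tumor cells 2 of 8 were higher (16%) and 4 lower (6.7%) for regressed against untreated. In the same cells 3 were higher (5.54%) and 2 lower (11.6%) for progressed against regressed. For progressed against untreated 1 was higher (9.7%) and 1 lower (5.6%). Fn1 held 640, 242 and 84.6 CPM there, and periostin (Postn) 1470, 557 and 1650 CPM. In immune cells 1 of 8 was higher and 1 lower, then 2 and 2 of 9, and 2 and 2 of 9. Thbs1 held 372, 311 and 114 CPM in immune cells.

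Of the other osteopontin-binding integrin chains, Itga8 was lower in the tumor cells of both treated tumors. In tumor cells 1 of 3 was lower (6.7% of all genes) for regressed against untreated, and 0 of 2 were past 2-fold for progressed against regressed. In the same cells 2 of 3 were higher (9.7%) and 1 lower (5.6%) for progressed against untreated. Itga8 held 87.1, 20.1 and 3.57 CPM there, the last from 3 UMIs, with a log2 ratio of -4.61 (-6.99 to -2.88) for progressed against untreated, and Itga4, which pairs with beta 1 or beta 7 on leukocytes, 34.1 and 79.8 CPM in the untreated and progressed tumors. In stroma 1 of 4 was higher for regressed against untreated, 1 lower for progressed against regressed, and none past 2-fold for progressed against untreated. In immune cells 1 of 4 was lower, 0 of 3, and 1 of 4 lower.

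Many of the remaining integrin chains were highest in the regressed tumor. In stroma 7 of 14 were past 2-fold higher (13.7% of all genes) and 0 lower for regressed against untreated, 7 of 13 were lower (15.9%) and 0 higher for progressed against regressed, and 0 of 13 were past 2-fold for progressed against untreated. Itgae, Itgb2, Itgb7 and Itgal, chains of leukocytes, led the first of these, with Itgae at 0.426 and 3.74 CPM. The NK and T cell list had a median over groups of 71.3 CPM in the regressed tumor and 3.32 CPM in the progressed tumor, and its part in these values was not tested. Itgb4, a chain of epithelial cells and Schwann cells, held 39.2, 148 and 36.0 CPM. In immune cells 7 of 12 were higher for regressed against untreated (25.6% of all genes), 4 of 12 lower for progressed against regressed (16.4%), and 3 of 10 higher for progressed against untreated. Itgae, the chain that holds T cells in epithelia, held 10.4, 66.8 and 25.6 CPM and its partner Itgb7 53.5, 212 and 122 CPM. Over the tumors both were highest in NK_T_Cytolytic and next in NK_T. Of 1053, 957 and 683 immune cells, NK_T had 25, 180 and 17 and NK_T_Cytolytic 15, 58 and 24. The part of this make-up in the immune cell values was not tested. In tumor cells 2 of 5 were higher, then 2 of 5 lower, then 1 of 4 higher and 1 lower, and the laminin receptor chain Itga6 held 22.7, 151 and 61.9 CPM.

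Among genes of hyaluronan, the other ligand of CD44, Has1, Cemip and Tnfaip6 were lower in the stroma of the regressed tumor. There 3 of 9 were past 2-fold lower (7.09% of all genes) and 0 higher for regressed against untreated, with a median log2 ratio of -0.43, 3 of 8 higher and 1 lower for progressed against regressed, and 1 of 9 higher and 1 lower for progressed against untreated. Has1, a hyaluronan synthase, held 56.5, 1.56 and 59.7 CPM, and Cemip, which serves in hyaluronan breakdown, 14.8, 0.156 and 0.284 CPM, with 1 UMI in the regressed stroma and a log2 ratio of -6.58 (-11.89 to -4.08) against untreated. Tnfaip6, which links proteins to hyaluronan, held 96.0, 39.2 and 194 CPM. In immune cells 3 of 7 were lower, then 3 of 7 higher and 1 lower, then 1 of 7 lower, and Lyve1, a hyaluronan receptor of lymphatic vessels and some macrophages, held 56.6, 5.54 and 61.1 CPM. In tumor cells 1 of 5 was higher and 2 lower, then 1 and 1, and 1 and 1, with versican (Vcan), a hyaluronan-binding proteoglycan, at 98.5, 265 and 299 CPM.

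Of the enzymes that cut or modify osteopontin, Mmp9 and Mmp12 were lower in the immune cells of both treated tumors. In immune cells 1 of 6 was higher (25.6% of all genes) and 2 lower (3.81%) for regressed against untreated. In the same cells 2 of 6 were lower (16.4%) for progressed against regressed, and 2 of 6 lower (5.73%) for progressed against untreated. Mmp9, a gelatinase of neutrophils, held 212, 56.8 and 15.0 CPM, and Mmp12, the macrophage elastase, 42.0 CPM untreated and 7.27 CPM regressed. The progressed immune cells included only 4 neutrophils. In stroma 1 of 6 was lower, then 1 of 5 higher, then 1 of 6 higher and 1 lower, and Fam20c, the kinase that phosphorylates osteopontin, held 66.2, 79.7 and 185 CPM, with its highest level in Stroma7, at 380 CPM over the tumors. In tumor cells 0 of 2, 1 of 3 lower and 0 of 2 were past 2-fold.

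The SIBLING genes, mineral-binding relatives of Spp1, were nearly silent. Dmp1 was the only one of 4 measured in a comparison, with 0.852, 0.467 and 2.50 CPM in stroma, higher in the progressed tumor against both others, and none was measured in tumor or immune cells. Of the proteins on the inner side of integrins and CD44, which tie the receptors to actin, 11 were measured in stroma. For regressed against untreated 2 were higher (13.7% of all genes) and 0 lower (7.09%). For progressed against regressed 2 were higher (4.99%) and 2 lower (15.9%) in stroma, and for the last pair none were past 2-fold. Fermt3, the kindlin of blood cells, held 0.781, 6.38 and 0.739 CPM there, and vinculin (Vcl) 88.4 CPM in the regressed and 186 CPM in the progressed tumor. In immune cells 1 of 11 was higher, then 0, then 1 higher, and in tumor cells 1 of 10 was higher and 1 lower, then 2 higher, then 0.

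The genes whose levels were most like those of each member over the 60 groups, by Pearson correlation of log2(CPM + 1) among 14468 genes, were as follows, as a description over groups that share libraries. For Spp1 they were Ifitm1 (0.59), Slpi (0.57), Trf (0.56), Cxcl2 (0.56) and Cxcl3 (0.56), and no gene was closely alike. By Spearman correlation Cxcl2 took place 126, and over the 53 groups of at least 20 cells Trf took place 41. For Cd44 they were Ezr (0.67) and Mapkapk3 (0.65), for Itgav Hipk3 (0.84) and Nisch (0.83), and for Itgb1 Septin2 (0.92) and Erlec1 (0.88). For Itgb3 they were Npr2 (0.76) and Gmds (0.75), and for Itgb5 Gas1 (0.64) and Pmepa1 (0.61).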

How the data were processed

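Whole tumors were profiled by droplet 3′ single-cell RNA-seq, 1 tumor per group. The authors aligned reads to GRCm38 with GSNAP, counted UMIs of unique sense reads over exons, removed cells under 300 UMIs and named clusters with Seurat 2.2.0. They deposited raw UMI counts per gene and cell. The cluster of each cell is a deposited cell label, neither a measure nor a score. The annotation release is not given in the sources used here. Removal of doublets is not stated, and none was run here.

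Genes were matched to symbols by identifier, for 31049 of 36530 features. UMIs were summed per cluster and tumor and divided by the summed UMIs (CPM). Table sums exceeded the deposited totals by 5.02%. Intervals were exact Poisson for levels, Clopper-Pearson for shares and conditional binomial for ratios, all at 95%. A level of 0 was bounded by 3 UMIs over the group. Genes with at least 20 UMIs over both tumors were measured. Groups under 10 cells were not described as levels. Shares were repeated with cells thinned to 1000 UMIs, leaving out shallower cells. TMM factors came from edgeR 4.0.16 in R 4.3.3. Ratios, their intervals and the 2-fold calls were tried on Poisson counts simulated from stroma sums, and the ranking of like genes on random values. The simulation held no clumping of UMIs in single cells, and thinning and shares were not tried in it. Named list genes were those past 2-fold, the largest first, with at most 4 per list and comparison, and a choice of these is given. Members, lists and markers were chosen with earlier results of these data known. One further allele of the model is not reported here.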

Additional observations from a re-analysis of the deposited data

Results flagged for a closer look

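Several values went opposite ways in different cells of the same pair of tumors, and these differences were not tested. The Spp1 log2 ratio of the regressed against the untreated tumor was 6.77 in tumor cells but -1.15 in stroma, and -1.73 in immune cells. The Cd44 log2 ratio of the progressed against the regressed tumor was 1.09 in stroma and -0.30 in immune cells, and the latter became 0.024 with TMM scaling. The Itgb3 log2 ratio for the same pair was 0.38 in stroma and -0.83 in immune cells. In clusters outside the 3 compartments, the regressed tumor had more Spp1 than the untreated one, with 374 against 67.6 CPM in Dividing cells, 67.7 against 32.8 CPM in Undefined1 and 78.7 against 19.9 CPM in Undefined2. Of the 77 Spp1 UMIs of the regressed Dividing cells, 59.7% lay in 2 of the 75 cells. The mast cells of the regressed tumor held 69.9 CPM, a level that the Undefined1 and Undefined2 values did not clear.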

How the results depend on the processing

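With 1 tumor per group no replicate could be left out, and no paired analysis was possible because no group had a second tumor. Of the alternatives computed, 592 values stayed within the counting error of the reported value, 222 lay outside it without a change of direction and 2 changed direction. The last were Itgb3 in immune cells, regressed against untreated (-1.17 with cells thinned to 500 UMIs), and Cd44 in immune cells, progressed against regressed (0.024 with TMM scaling). The Spp1 log2 ratios kept their directions. In tumor cells the regressed against untreated ratio was 5.29 and 3.81 with cells thinned to 1000 and 500 UMIs, and progressed against regressed -6.49 and -5.55. In stroma, regressed against untreated was -0.63 and -0.55 with the same thinning, -0.93 without the deepest 5% of cells, -0.72 with equal weight per cell and -1.40 with TMM scaling. Progressed against regressed was -0.82 thinned to 1000, -0.96 without those cells, -0.91 with equal weight and -0.76 with TMM. Progressed against untreated was -1.45 and -1.64 thinned, -1.89 without those cells and -1.63 with equal weight. In immune cells, regressed against untreated was -2.0 and -1.90 thinned, -1.90 without the cell with the most Spp1, -2.0 with equal weight and -2.31 with TMM. Progressed against regressed was -3.96 thinned to 500 and -2.91 with TMM, and progressed against untreated -5.86 and -5.23. The untreated Stroma1 share of Spp1 was 26.6% thinned to 1000, 38.4% without the 5% of deepest cells, 42.9% without its top cell and 23.7% with clusters weighted equally. The regressed Stroma10 share was 27.9%, 32.5% in cells of at least 1000 UMIs, 31.2% without the top cell and 3.98% with equal clusters, and the progressed Stroma7 share 52.2% with equal clusters. The number of list genes past 2-fold in tumor cells was 14 for regressed against untreated and 8 with a minimum of 50 UMIs. It was 12 for progressed against regressed and 19 with a minimum of 5, and 9 for progressed against untreated, with 14 and 5 at minimums of 5 and 50. In stroma it was 8 for progressed against untreated and 14 at a minimum of 5. The cause of these changes was not tested. The depth of Tumor2 left 121 of its 349 cells after thinning to 1000 UMIs.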
